A study of Arabidopsis thaliana with 38 samples.

Results

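GIGANTEA (GI, locus AT1G22770 on chromosome 1) was followed through a single probe set, the only 1 of 22746 tested whose annotation lists this gene. The probe set was picked by locus, and the gene was chosen with earlier results of these data known. GI encodes a large plant-specific protein of the circadian clock. It holds the blue-light F-box protein ZEITLUPE stable in the evening, and together with the related F-box protein FKF1 it removes the CDF repressors of CONSTANS, which opens the long-day route to flowering. Its transcript rises through the day and falls in the night, and in Arabidopsis leaves it is also known to be induced by low temperature.

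The study measured RNA from rosettes of 25-day-old Arabidopsis thaliana Col-0 plants on 38 Affymetrix arrays, 1 array per sample. The RNA pools were total RNA (14 arrays), polysomal RNA from sucrose gradient fractions in which an mRNA carries 2 or more ribosomes (14 arrays), and RNA recovered with the cold shock domain protein CSP1 by immunopurification after formaldehyde cross-linking (CSP1-IP, 10 arrays). The series asks which mRNAs change in level, in ribosome loading and in association with CSP1 in the cold. Plants grew at 23 °C with 16 h light and 8 h dark. The cold groups were moved to 4 °C 2 h after lights on and kept there for 12 h. A treatment time of 12 h is also listed for the non-stress groups, at 23 °C.

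The line 35S:HF-RPL18 (number 12-2-4), called HF-RPL18 here, carries a tagged ribosomal protein. The line 35S:AtCSP1-FH#11, called CSP1-FH, carries a tagged CSP1. The viral 35S promoter, active in most cell types, drives both transgenes, and each is a single numbered line. The third line, atcsp1-1, is a mutant of the CSP1 gene, and CSP1-IP RNA of this line was not analysed here. HF-RPL18 had 18 arrays with 3 in each group, CSP1-FH had 12 and atcsp1-1 had 8, both with 2 in each group. Each group was either non-stress (23 °C, light of about 100 µE per s per m2) or cold (4 °C, light of about 50 in the same unit), so temperature and light level changed together and their parts cannot be told apart. The design text calls the replicates biological, and the labels give them numbers but no harvest date, clock time or batch.

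All levels are log2 values made by the authors with RMA, so a difference of 1 is a doubling. A difference is called when its limma p, adjusted by Benjamini-Hochberg over 22746 probe sets, is below 0.05. Array medians lay between 4.24 and 4.52, and no array repeated another. The leaf label was checked on 7 of 11 leaf markers with a named probe set, which included psbA, rbcL and LHCB4.1, and whose mean level was 11.4 to 12.2 on total RNA arrays. None of the 2 phloem or 3 inflorescence markers had a named probe set, and neither had CSP1, so the targeted gene was not checked.

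GI stood far higher in the cold than in non-stress plants in every pool of every line. In total RNA of HF-RPL18 the non-stress arrays numbered 1, 2 and 3 read 3.41, 6.30 and 3.53, and the cold arrays read 9.27, 9.23 and 9.34. The groups did not overlap, and the 3 cold arrays lay within 0.11 of each other while 1 non-stress array stood apart from the other two. GI rose by 4.87 (SE 0.88, 95% interval 3.06 to 6.67, limma adjusted p = 0.00029), which is 29.2-fold, and 10.8% of probe sets were called in that comparison. In bulk leaf RNA, more cells of a type and more RNA per cell cannot be told apart.

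**Figure D1:**
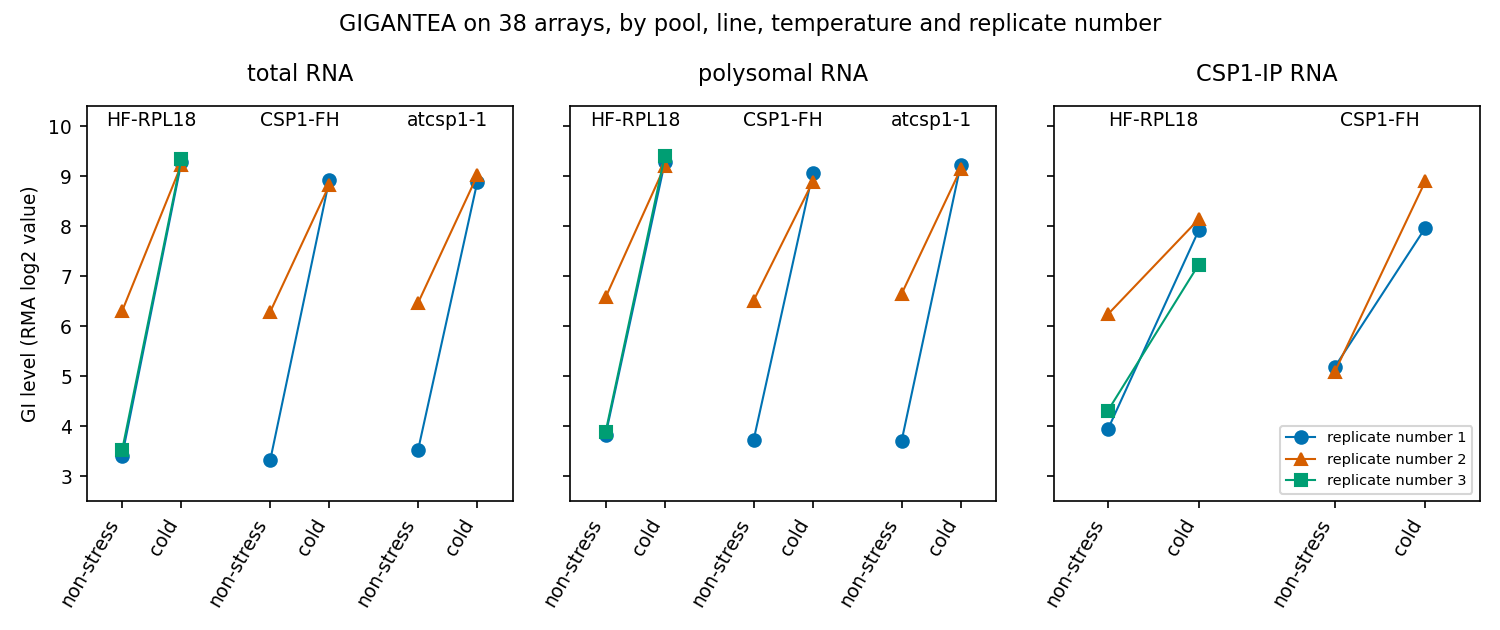
GI level (RMA log2 value, y axis) on each of the 38 arrays, by RNA pool (panels), line and condition (x axis), with lines joining arrays of the same replicate number. Every cold array lies above every non-stress array of its line and pool, and the non-stress arrays numbered 2 of total and polysomal RNA sit between 6.28 and 6.64, above the others at 3.31 to 3.89.

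The same contrast was called in total RNA of the other two lines. CSP1-FH read 3.31 and 6.28 in non-stress and 8.93 and 8.82 in the cold, a rise of 4.08 (SE 1.08, interval 1.87 to 6.29, limma adjusted p = 0.0194; 5.69% of probe sets called). The mutant atcsp1-1 read 3.53 and 6.47 against 8.88 and 9.01, a rise of 3.95 (SE 1.08, interval 1.74 to 6.16, adjusted p = 0.0204; 7.15% called). In both lines the cold arrays were close together and the non-stress arrays far apart, with no overlap.

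Polysomal RNA, which holds the mRNAs engaged by ribosomes, gave the same picture. HF-RPL18 read 3.83, 6.57 and 3.89 in non-stress and 9.28, 9.20 and 9.41 in the cold, a rise of 4.53 (SE 0.88, interval 2.72 to 6.34, limma adjusted p = 0.000763; 9.06% called). CSP1-FH read 3.72 and 6.51 against 9.06 and 8.89, a rise of 3.86 (SE 1.08, adjusted p = 0.0341; 4.58% called). The mutant read 3.70 and 6.64 against 9.23 and 9.14, a rise of 4.01 (SE 1.08, adjusted p = 0.0205; 6.28% called). None of these groups overlapped, and the lone high non-stress array was again the one numbered 2.

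In CSP1-IP RNA the cold arrays of GI were more scattered than in the other pools, and all but the CSP1-FH array numbered 2 were lower. HF-RPL18 read 3.94, 6.24 and 4.31 in non-stress and 7.91, 8.13 and 7.23 in the cold, a rise of 2.93 (SE 0.88, interval 1.12 to 4.73, limma adjusted p = 0.0143; 28.5% called). CSP1-FH read 5.18 and 5.08 in non-stress and 7.97 and 8.90 in the cold. Its arrays did not overlap either, but the difference of 3.30 (SE 1.08, interval 1.09 to 5.51) missed the threshold at an adjusted p of 0.0542, where 8.65% of probe sets were called. It passed when the 4 compared arrays were fitted alone (adjusted p = 0.0066).

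The calls for HF-RPL18 in total and polysomal RNA held in all 14 alternatives run for each, with values from 4.36 to 5.84 and from 4.06 to 5.48. The calls of the lines with 2 arrays per group were weaker: without the non-stress array numbered 1 they were lost in total RNA of CSP1-FH (2.59, limma adjusted p = 0.409) and atcsp1-1 (2.48, adjusted p = 0.423) and in polysomal RNA of CSP1-FH (2.46, adjusted p = 0.474) and atcsp1-1 (2.54, adjusted p = 0.382). They were also lost when either cold array was left out, at differences of 3.77 to 4.13 and adjusted p from 0.106 to 0.191. In CSP1-IP RNA of HF-RPL18 the rise was 2.48 (adjusted p = 0.0648) when number 1 of the non-stress arrays was left out and 2.67 (adjusted p = 0.0563) when number 3 was, and neither was called.

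Ordered by mean, the 8 cold groups came first, from 9.29 ± 0.10 (SD, n = 3) in polysomal RNA of HF-RPL18 to 7.76 ± 0.47 (n = 3) in its CSP1-IP RNA. The 8 non-stress groups followed, from 5.17 ± 2.08 (n = 2) in polysomal RNA of atcsp1-1 to 4.41 ± 1.64 (n = 3) in total RNA of HF-RPL18. The step between the lowest cold and the highest non-stress group was 2.59, and the arrays on its sides did not overlap. Neighbours among the non-stress groups differed by at most 0.35, less than the larger SD of the pair, and their arrays overlapped. That SD includes the differences between replicate numbers, so comparisons of polysomal with total RNA within a number are given separately. Among the cold groups only polysomal atcsp1-1 and polysomal CSP1-FH, which were 0.21 apart, were neighbours without overlapping arrays.

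The spread between replicates was the second feature of GI. Its SD was larger in non-stress than in cold in 7 of 8 pairs of pool and line. In total RNA it was 1.64 in non-stress HF-RPL18 against 0.06 in the cold, and 2.08 against 0.09 in atcsp1-1. The 2 arrays of CSP1-FH were 2.97 apart in non-stress and 0.10 apart in the cold. Only 20 probe sets in HF-RPL18, 8 in CSP1-FH and 6 in atcsp1-1 had a larger non-stress SD in total RNA, whereas 20509 had a larger SD than GI in cold total RNA of HF-RPL18. The exception was CSP1-IP RNA of CSP1-FH, with an SD of 0.07 in non-stress and 0.66 in the cold. Over all groups the residual SD of GI was 1.19, which ranked 19 of 22746.

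The wide non-stress spread followed the replicate number. In non-stress total RNA the 3 arrays numbered 2, 1 from each line, read 6.28 to 6.47, and the 4 numbered 1 or 3 read 3.31 to 3.53. Polysomal RNA repeated this, with 6.51 to 6.64 on the arrays numbered 2 and 3.70 to 3.89 on the others. CSP1-IP RNA of HF-RPL18 did so as well, where number 2 stood 2.30 above number 1 and number 3 only 0.37 above it. In CSP1-IP RNA of CSP1-FH number 2 stood 0.10 below number 1.

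Number 2 minus number 1 was therefore set out for each line. In non-stress total RNA the difference was 2.89 in HF-RPL18, 2.97 in CSP1-FH and 2.94 in atcsp1-1, and in polysomal RNA it was 2.75, 2.79 and 2.94. In cold total RNA the same subtraction gave −0.05, −0.10 and 0.13, and in cold polysomal RNA −0.08, −0.18 and −0.09. All 6 non-stress differences were thus 6.70-fold to 7.83-fold steps, and all 6 cold differences were within 0.18 of 0. Fitted over the 3 lines with limma, number 2 exceeded number 1 by 2.93 in non-stress total RNA (SE 0.10, interval 2.72 to 3.15, adjusted p = 1.38e-06), where 10.7% of probe sets were called and GI ranked 3 of 22746. In cold total RNA the difference was −0.01 (interval −0.23 to 0.21, adjusted p = 0.98; 4.89% called).

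The difference between the conditions was itself past the threshold. It was 2.94 in total RNA (SE 0.14, interval 2.63 to 3.25, limma adjusted p = 1.01e-05; 3.47% called). Polysomal RNA gave 2.82 in non-stress (SE 0.12, adjusted p = 2.17e-05; 3.08% called), −0.11 in the cold (adjusted p = 0.807; 1.51% called) and 2.94 for the difference of the 2 (SE 0.17, adjusted p = 0.000226; 1.06% called). These fits were chosen after the GI values had been seen, so their p-values describe the pattern and are no independent evidence of it. In non-stress total RNA, deviations of same-numbered arrays also correlated between HF-RPL18 and the other lines (0.40 to 0.58 over all probe sets). The lines may therefore not be independent repeats, and the SE measures scatter between lines only. What the replicate numbers mark is not given in the labels.

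**Figure D2:**
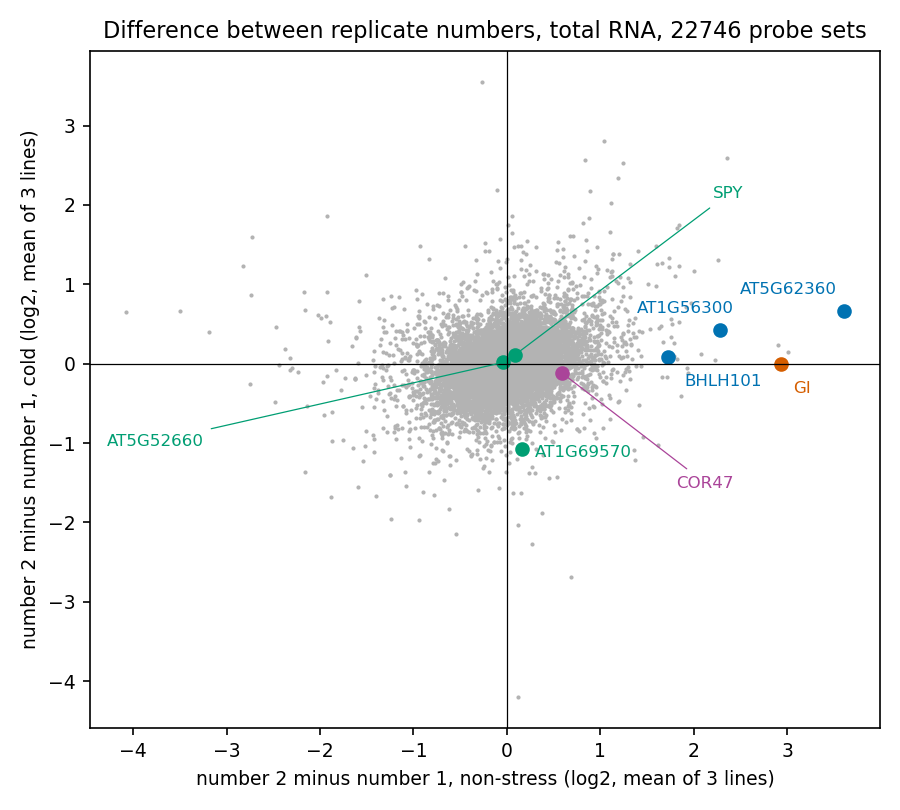
Difference between arrays numbered 2 and 1 in total RNA (log2, mean of 3 lines), non-stress on the x axis and cold on the y axis, 1 grey point for each of 22746 probe sets, with GI (orange) and genes named in the text in colour. GI lies at 2.93 in non-stress and −0.01 in the cold.

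Few other probe sets split in this way. Number 2 was above number 1 by more than 1 in all 6 non-stress groups of total and polysomal RNA for 30 probe sets (0.132%) and below it by more than 1 for 53 (0.233%). At a margin of 2 the counts were 3 and 6. The 3 were GI, AT5G62360 and an unnamed probe set, and the 6 included CHIL, which encodes a chalcone isomerase-like protein of flavonoid synthesis, AT3G28270 and AT1G64500. Of these 9 only GI also differed by less than 0.5 between the numbers in all 6 cold groups. These margins, too, were chosen after the values had been seen.

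The cold difference of GI therefore depended on the replicate number within which it was taken. Within numbers 1 and 3 it was 5.86 and 5.81 in total RNA of HF-RPL18, and within number 2 it was 2.92. That corresponds to 58.2-fold, 56.2-fold and 7.58-fold. CSP1-FH gave 5.61 (49.0-fold) within number 1 and 2.54 (5.82-fold) within number 2, and atcsp1-1 gave 5.35 (40.9-fold) and 2.55 (5.84-fold). Every within-number difference was a rise, and the means reported above average over the large and the small one. Polysomal RNA gave 5.45, 2.62 and 5.52 within numbers 1, 2 and 3 of HF-RPL18, 5.34 and 2.38 within numbers 1 and 2 of CSP1-FH, and 5.53 and 2.50 within the same numbers of atcsp1-1.

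In CSP1-IP RNA of HF-RPL18 the cold difference within numbers 1, 2 and 3 was 3.97, 1.90 and 2.92, again smallest within number 2. CSP1-FH departed from this, with 2.79 within number 1 and 3.82 within number 2. Without the arrays numbered 2 in any group the rise in total RNA was 5.84 in HF-RPL18, 5.61 in CSP1-FH and 5.35 in atcsp1-1. CSP1-IP RNA then gave 3.44 in HF-RPL18 and 2.79 in CSP1-FH. This setting was chosen after the GI values had been seen, so it describes the arrays that were left and is no independent evidence. In this setting CSP1-FH and atcsp1-1 have 1 array per group, whose spread is taken to equal that of HF-RPL18.

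**Figure D3:**
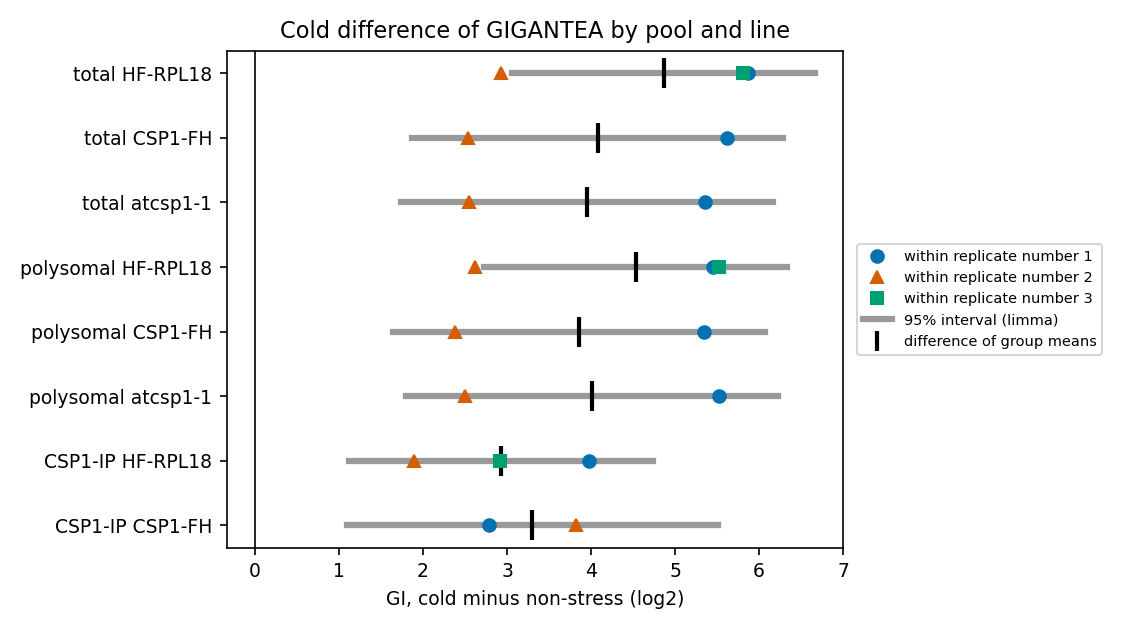
Cold minus non-stress difference of GI (log2, x axis) for each pool and line (y axis), as the difference of group means (black bar) with its 95% limma interval (grey) and within each replicate number (coloured points). In total and polysomal RNA the points for number 2 lie between 2.38 and 2.92 and all others between 5.34 and 5.86.

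Some other measures also differed on the non-stress arrays numbered 2, and their part in the GI pattern was not tested. The trichome patterning gene TRY, the 1 measured of 3 trichome markers, read 4.07 to 4.41 on the 3 non-stress total RNA arrays numbered 2, 5.54 to 6.49 on the other 4, and 2.89 to 3.36 on the 7 cold arrays. Its number 2 minus number 1 difference was −1.42 (SE 0.12, limma adjusted p = 0.000184). Of the 7 leaf markers, 2 were called higher on number 2 than on number 1, where 10.7% of all probe sets were called. The light-harvesting gene LHCB4.2 was higher by 0.73 (SE 0.14, limma adjusted p = 0.0102). The other was psbA, which encodes the D1 protein of photosystem II, by 1.32 (SE 0.35, adjusted p = 0.0407). It did not follow number 2 as GI did, since HF-RPL18 number 3 read 11.07 against 9.95 to 10.09 on the arrays numbered 2. In cold total RNA psbA differed by 1.03 (adjusted p = 0.137), and in non-stress polysomal RNA by 0.17 (adjusted p = 0.86). In non-stress total RNA the other 5 leaf markers ranged from −0.01 (ATPC1) to 0.61 (rbcL) and were not called. The mean of the 7 leaf markers was 12.0 to 12.1 on the arrays numbered 2 and 11.4 to 12.2 on the other non-stress total RNA arrays, and the mean of the 3 measured of 5 guard cell markers was 4.90 to 5.21 against 4.90 to 5.05. The root marker PYK10, the 1 measured of 2, ranged from 3.23 to 6.17 against 2.89 to 6.39.

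RNA quality controls on the same arrays tended to larger values, but overlapped those of other arrays. The difference between the 3′ and 5′ ubiquitin control probe sets, which grows as RNA shortens, was 1.57 to 1.73 on the 3 non-stress total RNA arrays numbered 2 and 1.18 to 1.60 on the other 11 total RNA arrays. For actin it was 4.02 to 4.19 against 3.31 to 4.13, and for GAPDH 1.30 to 1.99 against 1.05 to 1.84. The other 11 arrays include the cold ones. Among non-stress total RNA arrays, ubiquitin was 1.574 on HF-RPL18 number 3, above 1.569 on CSP1-FH number 2. In non-stress polysomal RNA of HF-RPL18 ubiquitin was 1.36 on number 2 and 1.42 on number 1. The part of RNA quality in the GI values was not tested either.

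By a fixed measure of likeness, 6 named genes had replicate deviations nearest to those of GI. The measure was the root mean square difference between 2 genes' deviations from their group means over the 28 total and polysomal arrays. The deviations of GI had a root mean square of 0.987, and the median difference of the other probe sets from GI was 0.990. The nearest were AT1G56300 (0.389), AT5G62360 (0.436), BHLH101 (0.460), AT1G48330 (0.504), AT4G29610 (0.521) and AT1G13990 (0.525). BHLH101 encodes a transcription factor of the iron-deficiency response. The values are a description over arrays that share RNA pools, lines and replicate numbers.

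The split by number in these 6 genes follows from how they were chosen, while their cold differences varied. In non-stress total RNA of HF-RPL18, AT5G62360 read 5.74, 9.84 and 5.88 on the arrays numbered 1, 2 and 3, and BHLH101 read 2.80, 5.02 and 3.25. In the cold AT5G62360 read 12.55, 13.03 and 12.65, a rise of 5.59 (SE 1.03, limma adjusted p = 0.000353), and it was called in all 8 cold comparisons. BHLH101 read 2.65, 2.77 and 2.41 in the cold, a difference of −1.08 (SE 0.50, adjusted p = 0.214). AT1G48330 was lower in the cold in all 8 comparisons, by −2.64 to −2.03, and 4 of them were called. AT1G56300, BHLH101, AT4G29610 and AT1G13990 were called in 0 of the 8.

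Of the wider clock and GI pathway few members could be read by name. The clock list had 1 of 24 members besides GI with a named probe set, AT5G52660, and the list of GI partners and outputs had 2 of 23, SPY and AT1G69570. The annotation gives no name for AT5G52660 or AT1G69570. SPY encodes SPINDLY, an O-fucosyltransferase that modifies nuclear proteins and binds GI.

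SPY rose in all 8 cold comparisons. In total RNA of HF-RPL18 it read 5.67, 5.64 and 5.78 in non-stress and 6.82, 6.89 and 6.97 in the cold, without overlap, a rise of 1.19 (SE 0.17, limma adjusted p = 1.24e-05). AT1G69570 rose in 7 of 8. It read 4.17, 4.44 and 4.29 against 8.89, 8.01 and 8.47 in total RNA of HF-RPL18, a rise of 4.16 (SE 0.40, adjusted p = 1.62e-08), and missed the threshold in CSP1-IP RNA of CSP1-FH (1.49, adjusted p = 0.0548).

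AT5G52660 was called higher in the cold in 5 of 8 comparisons. It read 5.46, 5.53 and 5.65 against 6.38, 6.58 and 6.21 in total RNA of HF-RPL18, a rise of 0.84 (SE 0.22, limma adjusted p = 0.00968). In CSP1-IP RNA its difference was 0.29 (adjusted p = 0.323) in HF-RPL18 and −0.13 (adjusted p = 0.814) in CSP1-FH, neither called. None of the 3 genes carried the non-stress split of GI: number 2 minus number 1 in non-stress total RNA was −0.04 for AT5G52660 (adjusted p = 0.878), 0.16 for AT1G69570 (adjusted p = 0.451) and 0.09 for SPY (adjusted p = 0.657). AT1G69570 instead differed between the numbers in the cold, by −1.07 in total RNA (adjusted p = 0.00119) and −1.21 in polysomal RNA (adjusted p = 0.00426).

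Polysomal and total RNA of the same replicate number held GI at nearly the same level. In non-stress plants polysomal minus total RNA was 0.42, 0.27 and 0.36 within numbers 1, 2 and 3 of HF-RPL18, 0.41 and 0.23 in CSP1-FH, and 0.18 and 0.18 in atcsp1-1. All 7 were positive, with a mean of 0.29 ± 0.10 (SD, n = 7 pairs, exact two-sided sign-flip test p = 0.0156, the smallest this design allows). In the cold the same differences were 0.00, −0.03 and 0.07 in HF-RPL18, 0.14 and 0.06 in CSP1-FH, and 0.35 and 0.13 in atcsp1-1. Here 6 of 7 were positive, with a mean of 0.10 ± 0.12 (SD, n = 7 pairs, exact p = 0.0469). Adjusted over the 2 tests these are exact p = 0.0312 and exact p = 0.0469. The 7 pairs come from 3 lines that share replicate numbers. They were not shown to be independent, which the sign-flip test assumes.

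The small excess on polysomes is read against the rest of the arrays. The median of the mean pair difference over all probe sets was 0.04 in both conditions, 12.2% of probe sets had a larger mean than GI in non-stress plants and 38.5% in cold plants. For 12.7% of probe sets all 7 non-stress pairs were positive. In limma without pairing, polysomal minus total RNA of GI was called in 0 of 6 comparisons, from 0.01 to 0.35 at an unadjusted p of 0.694 to 0.987; 0.35 in non-stress HF-RPL18 (SE 0.88) had an adjusted p of 0.987, where 1.12% of probe sets were called. The share called was 2.84% in cold HF-RPL18, 0.435% in non-stress and 0.044% in cold CSP1-FH, and 0% in non-stress and 0.0308% in cold atcsp1-1. A further fit left out the CSP1-IP arrays and took the replicate number as a block within line and condition. It called the 0.35 of non-stress HF-RPL18 (SE 0.10, interval 0.14 to 0.56, limma adjusted p = 0.0218), where 18.6% were called. The blocked fit left CSP1-FH in non-stress at 0.32 (SE 0.12, adjusted p = 0.0965) and atcsp1-1 at 0.18 (SE 0.12, adjusted p = 0.452), and in the cold none of the 3 lines was called (adjusted p from 0.261 to 0.929).

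**Figure D4:**
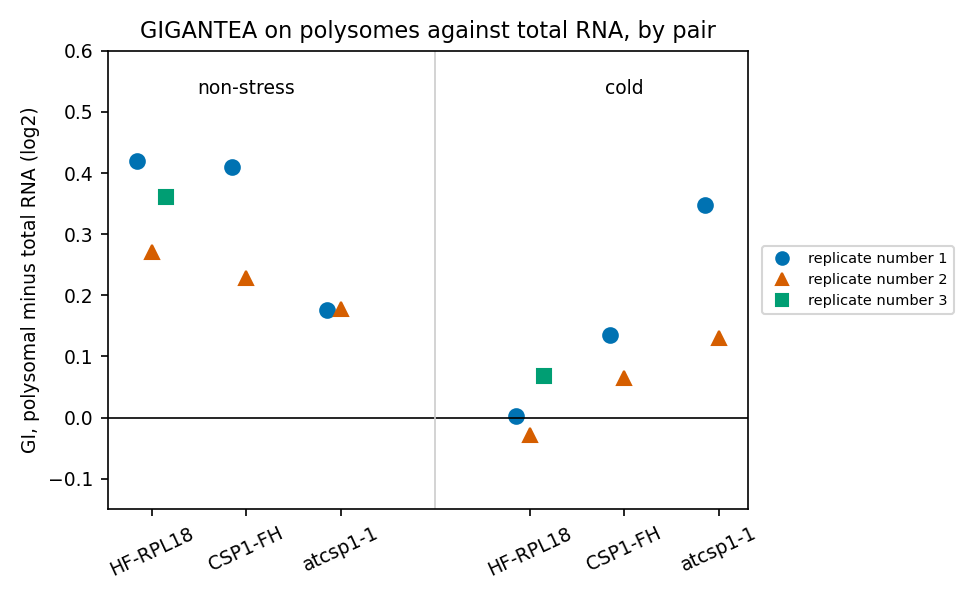
GI in polysomal minus total RNA (log2, y axis) for each pair of arrays with the same line, condition and replicate number (x axis, by line). All 7 non-stress pairs lie between 0.18 and 0.42, and the 7 cold pairs lie between −0.03 and 0.35.

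The cold response of GI was not shown to differ between polysomal and total RNA. The difference of the 2 responses was −0.34 in HF-RPL18 (limma interval −2.89 to 2.22), −0.22 in CSP1-FH (interval −3.35 to 2.91) and 0.06 in atcsp1-1 (interval −3.06 to 3.19). Unadjusted p-values were 0.789, 0.887 and 0.967. These intervals are wide enough to hold shifts of several-fold in either direction. No probe set was called by limma in these 3 comparisons, and 123, 55 and 46 of 22746 had an unadjusted p below 0.05.

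In cold HF-RPL18 plants GI read lower on the CSP1-IP than on the total RNA arrays, though the main fit did not call the difference. The CSP1-IP arrays read 7.91, 8.13 and 7.23 and the total RNA arrays 9.27, 9.23 and 9.34, with no overlap. Within numbers 1, 2 and 3 the difference was −1.36, −1.09 and −2.11, and the group means differed by −1.52 (SE 0.88, interval −3.33 to 0.28). That was not called with the spread shared by all groups (limma adjusted p = 0.141), where 55.7% of probe sets were called and the median over all of them was 0.20. It was called when the 6 compared arrays were fitted alone (SE 0.28, adjusted p = 0.00764). Against polysomal RNA the difference was −1.54 (SE 0.88, adjusted p = 0.151; 47.6% called), and again it was called when fitted alone (SE 0.30, adjusted p = 0.00864).

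In cold CSP1-FH plants the CSP1-IP arrays stood further apart. CSP1-IP minus total RNA was −0.96 within number 1 and 0.08 within number 2, on average −0.44 (SE 1.08, interval −2.65 to 1.77, limma adjusted p = 0.779; 27.6% called). CSP1-IP minus polysomal RNA was −0.54 (SE 1.08, adjusted p = 0.742; 26.5% called). One of the 2 CSP1-IP arrays matched the other pools and the other lay below them. By percentile, numbers 1 and 2 stood at 91.3 and 95.3 in CSP1-IP RNA against 93.5 and 93.0 in total RNA.

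In non-stress plants no shift of GI into or out of CSP1-IP RNA was detected. CSP1-IP minus total RNA in HF-RPL18 was 0.53, −0.07 and 0.79 within numbers 1, 2 and 3, on average 0.42 (SE 0.88, interval −1.39 to 2.22, limma adjusted p = 0.743; 31.8% called). In CSP1-FH it was 1.87 within number 1 and −1.20 within number 2, on average 0.33 (SE 1.08, interval −1.88 to 2.54, adjusted p = 0.828; 36.1% called). The CSP1-FH mean thus hides a pair of opposite differences, since its CSP1-IP arrays read 5.18 and 5.08 where its total RNA arrays read 3.31 and 6.28. CSP1-IP minus polysomal RNA was 0.07 in HF-RPL18 (SE 0.88, adjusted p = 0.965; 30.6% called) and 0.01 in CSP1-FH (SE 1.08, adjusted p = 0.994; 32.9% called).

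The cold rise of GI was smaller in CSP1-IP than in total RNA by −1.94 in HF-RPL18 (SE 1.24, interval −4.49 to 0.62, limma adjusted p = 0.364; 4.48% called) and by −0.77 in CSP1-FH (SE 1.52, interval −3.90 to 2.35, adjusted p = 0.927; 0.101% called), neither past the threshold. SPY was lower in CSP1-IP than in total RNA in all 4 comparisons (−1.51 to −0.88). Of all probe sets, 31.8% were called in non-stress and 55.7% in cold HF-RPL18, and 36.1% in non-stress and 27.6% in cold CSP1-FH. AT5G52660 was called lower in 3 of these 4 comparisons. In non-stress CSP1-FH it read 5.22 and 5.34 in CSP1-IP against 5.65 and 5.49 in total RNA, also lower but not called. AT1G69570 was lower in both cold comparisons, at −1.13 in HF-RPL18 (adjusted p = 0.0187) and −1.36 in CSP1-FH (adjusted p = 0.038). Its non-stress differences had the other sign and were not called, at 0.51 (adjusted p = 0.342) and 1.03 (adjusted p = 0.0973). The CSP1-IP arrays differed from the others as a whole. The 3′ minus 5′ difference of the GAPDH control was 5.02 to 7.60 on them and 0.79 to 2.42 on all total and polysomal arrays. Their values also spanned a narrower range, with an SD over the probe sets of an array of 1.83 to 2.14 against 2.22 to 2.32. The part of either in these differences was not tested.

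GI levels in CSP1-FH and atcsp1-1 were not shown to differ from those in HF-RPL18. None of 10 line comparisons within a pool and condition was called by limma, and none had an unadjusted p below 0.05, the lowest being 0.499. In cold total RNA CSP1-FH minus HF-RPL18 was −0.40 (SE 0.98, interval −2.42 to 1.61) and atcsp1-1 minus HF-RPL18 was −0.33 (SE 0.98, interval −2.35 to 1.69), and 0.0044% of probe sets were called in each. The 2 cold arrays of each of these lines (8.93 and 8.82, 8.88 and 9.01) nevertheless lay below the 3 of HF-RPL18 (9.23 to 9.34), without overlap. The shared spread used for the SE comes mostly from the non-stress arrays.

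Non-stress means of the lines are not balanced over replicate numbers, because HF-RPL18 has 1 of 3 arrays numbered 2 and the other lines 1 of 2. CSP1-FH minus HF-RPL18 was 0.38 and atcsp1-1 minus HF-RPL18 was 0.58 in non-stress total RNA (SE 0.98 each; 0.00879% of probe sets called in each). Among the total RNA arrays numbered 2 alone, the 3 lines read 6.30, 6.28 and 6.47, and among those numbered 1 they read 3.41, 3.31 and 3.53. In CSP1-IP RNA CSP1-FH minus HF-RPL18 was 0.30 in non-stress (SE 0.98, limma adjusted p = 0.916; 3.63% called) and 0.67 in the cold (SE 0.98, adjusted p = 0.714; 7.22% called). The cold response differed between a line and HF-RPL18 by −0.92 to 0.37 over 5 comparisons, of which none was called (unadjusted p from 0.516 to 0.79). In the CSP1-IP comparison of CSP1-FH with HF-RPL18 8.57% of probe sets were called, and in the other 4 none was.

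The named genes nearest to GI over the 16 group means were found by the same kind of measure. Since the cold step makes up most of the GI profile, this choice favours genes that are higher in the cold, and their cold differences are a description. Here likeness was the root mean square difference between profiles centred on their own mean. The profile of GI had a root mean square of 2.01, and the median difference of the other probe sets from GI was 2.04. COR47, which encodes a dehydrin that accumulates in cold and drought, was nearest at 0.261. AT1G22570 (0.414), AT1G11210 (0.419), AT1G52200 (0.453), AT2G16890 (0.454) and the plant defensin gene PDF2.1 (0.481) followed. The cold difference of COR47 was 3.38 to 4.57 over the 8 comparisons, and all 8 were called.

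These neighbours in mean level differed from GI in their replicates. In non-stress total RNA of HF-RPL18, COR47 read 8.47, 9.23 and 8.41 and PDF2.1 read 3.62, 3.57 and 3.68 on the arrays numbered 1, 2 and 3. Number 2 minus number 1 over the 3 lines was 0.59 for COR47 (SE 0.11, limma adjusted p = 0.00905) and 0.01 for PDF2.1, against 2.93 for GI. AT1G22570 came closer at 2.00, with 4.17, 6.14 and 4.40 on the 3 HF-RPL18 arrays. AT2G16890 went the other way at −1.01, with 4.75, 3.04 and 4.05.

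**Figure D5:**
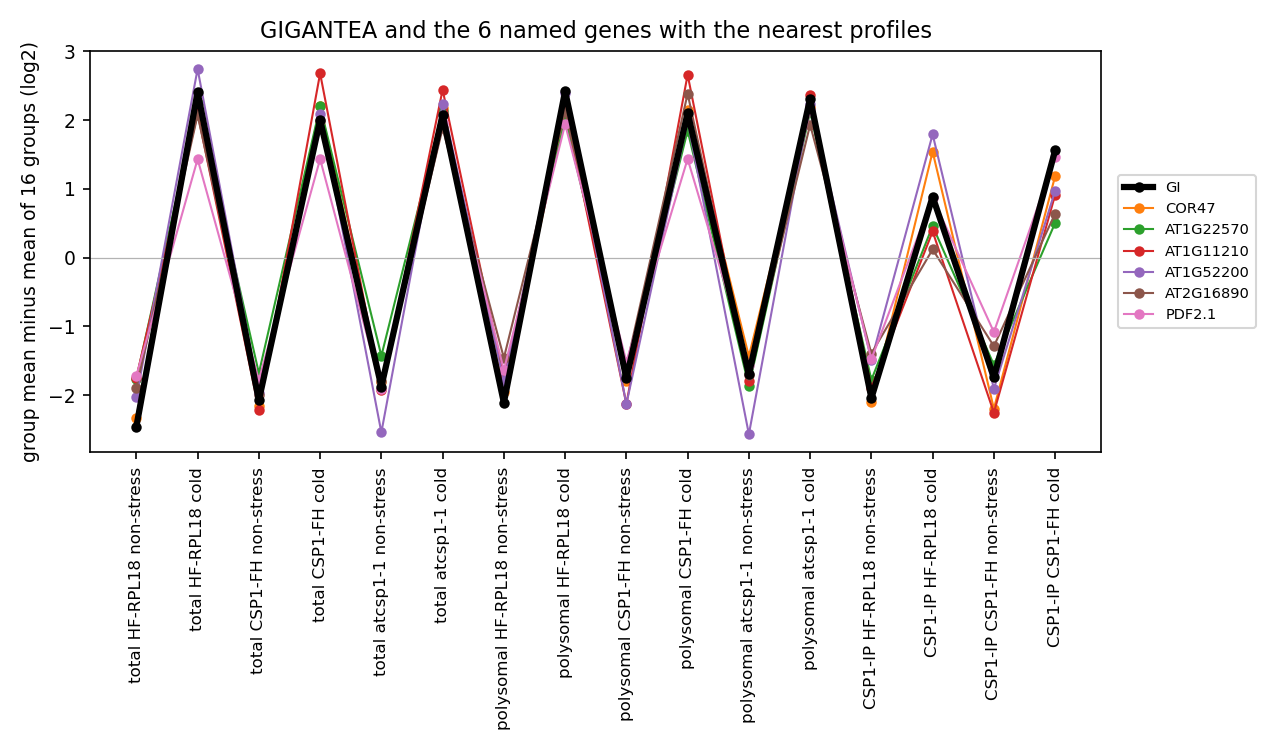
Group mean minus the mean of 16 groups (log2, y axis) for GI (black) and the 6 nearest named genes, by pool, line and condition (x axis, in no order, with lines as a guide to the eye). GI lies above its mean in all 8 cold groups and below it in all 8 non-stress groups, and so do the others.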

How the data were processed

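The authors deposited log2 expression values per probe set made with RMA, per the submitters' processing notes (RMA version and joint normalisation: not given in the sources used here). No further normalisation was applied. Of 22810 probe sets, 64 controls were left out and 22746 tested; the annotation names 1 gene for 13513, several for 503 and none for 8730. No genome build is named in the files, so no coordinates are given, and a planned search of promoters for clock and cold motifs was not run because no sequence was used here. Tests used limma 3.58.1 in R 4.3.3 with 1 mean per group over 38 arrays and a shared spread (22 residual and 5.22 prior degrees of freedom), 2-sided p-values and Benjamini-Hochberg adjustment within each comparison. The script was tested on simulated data. Precision is limited by the 2 or 3 arrays of a group.

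Replicate numbers were tested for pairing by correlating deviations from group means over all probe sets. Total and polysomal RNA of HF-RPL18 correlated at 0.489 to 0.725 in non-stress and 0.498 to 0.556 in the cold, and cold with non-stress at 0.314 to 0.496 in total and 0.354 to 0.488 in polysomal RNA, so these numbers were taken to pair. Arrays of CSP1-IP RNA and the other pools correlated at −0.03 to 0.23 and were not. The main fits had no pairing term. Pairing entered the within-number differences, the sign-flip test and the alternatives with a replicate block.

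GI was the member; clock and GI-pathway lists, tissue markers and the 6 nearest genes by each likeness measure are the only other genes named by rule, and CHIL, AT3G28270 and AT1G64500 were named after their values were seen. The members and lists were chosen with earlier results of these data known. Alternatives are given in the closing section.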

Additional observations from a re-analysis of the deposited data

Results flagged for a closer look

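The difference of GI between non-stress arrays numbered 2 and 1 was not the same in the 2 conditions. In total RNA it was larger in non-stress than in cold plants by 2.94 (SE 0.14, limma adjusted p = 1.01e-05), with number 2 above number 1 in 3 of 3 lines in non-stress and in 1 of 3 in the cold. In polysomal RNA it was larger by 2.94 (SE 0.17, limma adjusted p = 0.000226), with number 2 above number 1 in 3 of 3 lines in non-stress and in 0 of 3 in the cold. The comparison was chosen after the values had been seen, and its SE measures scatter between lines that share the replicate numbers.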

How the results depend on the processing

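The cold rise of GI stayed positive in all 100 alternatives run for its 8 comparisons, from 2.46 to 5.84. Other results of GI were small against its spread, and their signs moved with single arrays; where a call or sign changed, the cause was not tested unless fewer arrays or fewer probe sets were fitted. With the compared groups alone, the cold calls were lost in total RNA of CSP1-FH (4.08, limma adjusted p = 0.0565) and polysomal RNA of atcsp1-1 (4.01, adjusted p = 0.0767), and calls were gained for the cold difference in CSP1-IP RNA of CSP1-FH (3.30) and, in cold HF-RPL18, for CSP1-IP minus total RNA (−1.52) and minus polysomal RNA (−1.54). The cold difference of 3.30 in CSP1-IP RNA of CSP1-FH was also called without dim probe sets (limma adjusted p = 0.0432) and with the replicate block (adjusted p = 0.0117). Without replicate 2 in all groups it was 2.79, from 1 array per group. Array weights ended the call in CSP1-IP RNA of HF-RPL18 (3.16, adjusted p = 0.385) and turned polysomal minus total RNA in cold HF-RPL18 to −0.012, CSP1-IP minus polysomal RNA in non-stress HF-RPL18 to −0.50 and CSP1-FH minus HF-RPL18 in non-stress polysomal RNA to −0.020. Trend and robust moderation ended the call in polysomal RNA of CSP1-FH (3.86, adjusted p = 0.0501). Cyclic loess turned the difference of the CSP1-IP cold response between CSP1-FH and HF-RPL18 to −0.11 and number 2 minus number 1 in cold total RNA to 0.0098.

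With the replicate block within line and condition, a call was gained for polysomal minus total RNA in non-stress HF-RPL18 (0.35), in a fit without the CSP1-IP arrays. In the blocked fit to all arrays, calls were gained in cold HF-RPL18 for CSP1-IP minus total RNA (−1.52, limma adjusted p = 0.00211) and minus polysomal RNA (−1.54, adjusted p = 0.00224). The CSP1-IP against total difference of the cold response in HF-RPL18 was called there too (−1.94, adjusted p = 0.0309). CSP1-IP arrays share only a number with the others. With a replicate block shared by the lines, CSP1-FH minus HF-RPL18 in non-stress turned to −0.059 in total and −0.086 in polysomal RNA and atcsp1-1 minus HF-RPL18 to −0.029 in polysomal RNA. The block changed no other call. Both blocks, the fit without replicate 2 in all groups and the fits by number were chosen after seeing the data.

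Leaving out each array in turn gave cold differences of 2.59 to 5.56 (total) and 2.46 to 5.25 (polysomal) in CSP1-FH, 2.48 to 5.42 (total) and 2.54 to 5.48 (polysomal) in atcsp1-1, and 2.48 to 3.63 in CSP1-IP RNA of HF-RPL18. Polysomal minus total RNA ran from −0.56 to 1.30 in non-stress and −0.042 to 0.062 in cold HF-RPL18, and in non-stress from −1.17 to 1.80 in CSP1-FH and −1.29 to 1.65 in atcsp1-1. CSP1-IP minus total RNA ran from −0.29 to 1.36 in non-stress HF-RPL18, −1.15 to 1.82 in non-stress and −0.91 to 0.023 in cold CSP1-FH; CSP1-IP minus polysomal RNA ran from −0.64 to 0.97 in non-stress HF-RPL18 and −1.38 to 1.41 in CSP1-FH. Against HF-RPL18 in non-stress, CSP1-FH ran from −1.10 to 1.87 (total), −1.04 to 1.75 (polysomal) and −0.15 to 1.00 (CSP1-IP), and atcsp1-1 from −0.89 to 2.05 (total) and −1.06 to 1.88 (polysomal). The cold response in polysomal against total RNA ran from −1.28 to 0.57 in HF-RPL18, −1.70 to 1.27 in CSP1-FH and −1.41 to 1.53 in atcsp1-1, and in CSP1-IP against total RNA from −2.26 to 0.71 in CSP1-FH. Against HF-RPL18 the cold response of CSP1-FH ran from −2.27 to 0.70 (total), −2.07 to 0.72 (polysomal) and −0.33 to 0.84 (CSP1-IP), and that of atcsp1-1 from −2.39 to 0.55 (total) and −1.99 to 0.95 (polysomal). A lone array left in a group is assumed to vary like the others.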
